A study of Mus musculus with 16 samples.

Results

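The genes described here are 4 neighbours on mouse chromosome 14: Rnase1, Rnase4 and Ang, which encode secreted ribonucleases of the RNase A family, and the long intergenic noncoding RNA gene 1810028F09Rik, which lies beside Rnase1. All 4 were found by symbol among 55468 gene lines of the day 5 table and 55471 of the day 7 table. Rnase1 and 1810028F09Rik were picked on their day 7 difference between shRNARUS and shRNACON, which was the largest rise there, and Rnase4 and Ang were taken as their neighbours. For these 4 genes, day 7 differences and all other values that use the day 7 libraries are therefore given as a description without a test, and their test of the knockdown is that on day 5; other genes were tested on both days.

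The libraries came from neural stem cells (NSC) of C57BL/6 mouse embryos, isolated from the cortex at E15 to E16 and grown as a monolayer with B27, FCS and FGF2. All cultures carried a lentiviral shRNA, either a scrambled sequence (shRNACON) or one against the long noncoding RNA RUS, listed as Gm20754 (shRNARUS). Cells were collected on day 5 after seeding, the day on which differentiation in Neurobasal medium was begun, and on day 7, with 4 libraries per group, making 16. The labels and methods name 1 targeting shRNA, so an effect of that sequence other than on RUS cannot be told apart from the knockdown. The labels do not say whether the libraries of a group are separate cultures, so p-values measure the spread between these libraries, which may be technical.

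Ribonucleases of the RNase A family are small secreted proteins with paired disulfide bonds that cut RNA next to pyrimidines. Rnase1 is the pancreatic type, which also circulates in blood and degrades extracellular RNA. Ang, or angiogenin, induces blood vessel growth, acts on motor neurons and cuts transfer RNA under stress. Rnase4 prefers uridine and is transcribed from promoters it shares with Ang. The cytosolic inhibitor Rnh1 binds members of the family tightly, and Plxnb2 is a receptor for angiogenin.

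In the GRCm38 annotation, Rnase4 (ENSMUSG00000021876.15) lies at chr14:51091077-51106151 and Ang (ENSMUSG00000072115.11) at chr14:51091150-51102009, both on the plus strand. Rnase1 (ENSMUSG00000035896.5) lies at chr14:51144998-51146785 on the minus strand, with 2 exons in its 1 annotated transcript. The lincRNA gene 1810028F09Rik (ENSMUSG00000114985.1) lies at chr14:51142870-51144117, also on the minus strand, as a single exon that begins 880 bp beyond the end of Rnase1. The 4 genes span 55709 bp, and 36718 bp separate Rnase4 from 1810028F09Rik. The protein-coding genes Eddm3b and Rnase6, the latter also of the RNase A family, lie in that gap. The last exons of Rnase4 and Ang are separate, but their first exons overlap and the genes have 219 exonic bases in common, 13.4% of those of Rnase4 and 18.2% of those of Ang. How reads from the shared bases are divided between Rnase4 and Ang is an estimate of the quantification, so their TPM are partly linked.

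The sequences before the start sites are shown because Rnase1 and the Rnase4 and Ang pair moved in opposite directions on day 7 and start from separate regions. RefSeq gives promoter windows for 3 of the 4 genes; 1810028F09Rik was named only. The 250 bases before the RefSeq start are printed 5′ to 3′ on the strand of the gene, at chr14:51146768-51147017 (minus strand, GRCm38.p6) for Rnase1 and at chr14:51090827-51091076 (plus strand) for the start that RefSeq gives to both Rnase4 and Ang. Capitals mark matches, on either strand, to the motifs searched.
Rnase1: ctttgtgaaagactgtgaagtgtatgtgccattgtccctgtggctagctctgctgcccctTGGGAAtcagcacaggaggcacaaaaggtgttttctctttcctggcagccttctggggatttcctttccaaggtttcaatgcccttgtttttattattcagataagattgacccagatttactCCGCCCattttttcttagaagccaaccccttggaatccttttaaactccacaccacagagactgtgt
Rnase4 and Ang: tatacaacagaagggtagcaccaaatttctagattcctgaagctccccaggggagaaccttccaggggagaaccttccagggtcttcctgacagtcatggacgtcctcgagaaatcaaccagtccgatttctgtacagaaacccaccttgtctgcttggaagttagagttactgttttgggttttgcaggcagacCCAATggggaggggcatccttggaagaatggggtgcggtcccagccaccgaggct

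Both strands were searched for core promoter letters and for the letters bound by factors of neural stem cells. The core letters were TATAAA for the TATA box, CCAAT for the box of that name and GGGCGG for the GC box. The letters bound by FoxO factors were taken as GTAAACA, and those bound by RBPJ, the DNA-binding partner of Notch, as TGGGAA. In the Rnase1 window, TGGGAA occurred once, 190 bases before the start, and the GC box occurred once on the other strand, 67 bases before the start. In the shared Rnase4 and Ang window, only the CCAAT box occurred, 55 bases before the start. None of the matches overlapped another. Of 32817 promoter windows of the same length, 21.6% held the RBPJ letters, 32.7% the GC box, 33.8% the CCAAT box, 12.4% the TATA box and 3.16% the FoxO letters. A second RefSeq start of Rnase4, with its window at chr14:51095750-51095999, held TGGGAA 165 bases before the start and none of the other motifs. In the annotation used for the positions, an Ang transcript begins right after this window, at 51096000, and the Rnase4 transcript nearby begins at 51096359. The G and C content was 45.6% in the Rnase1 window and 52.4% in the shared one. These matches are a description of letters in the windows, and binding was not measured.

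Expression is given as TPM, as deposited, a unit that divides reads by transcript length and sums to 1000000 within each library, so that levels of different genes can be compared. Log2 differences are shRNARUS minus shRNACON on the log2(TPM divided by a library factor + 0.1) scale, which understates changes of genes near 0. The tables used here hold no read counts, so the depth of a library is unknown; the authors' mean normalized count over the libraries of a day was 13.9 for Rnase1 on day 5 and 390 on day 7, 2.10 and 87.4 for 1810028F09Rik, 712 and 1566 for Rnase4, and 48.9 and 123 for Ang.

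RUS itself, the target of the shRNA, was at low levels throughout. Gm20754 had 0.24, 0.11, 0.18 and 0.16 TPM in shRNACON and 0.05, 0, 0.12 and 0.32 TPM in shRNARUS on day 5, and 0.7, 0.72, 0.26 and 0.54 against 0.54, 0.38, 0 and 0.04 TPM on day 7. The groups overlapped on both days, and the log2 difference was -0.40 on day 5 (limma adjusted p = 0.519) and -1.28 on day 7 (limma adjusted p = 0.114). The authors' mean normalized count for Gm20754 was only 3.86 on day 5 and 8.57 on day 7. For this experiment the authors measured RUS by RT-qPCR and reported it as reduced by the shRNA. In a principal component analysis of the day 5 libraries, shRNARUS replicate 4 lay at 15.9 on the first component, with the other shRNARUS libraries between 40.5 and 56.2 and shRNACON between -53.6 and -26.2. Markers of neural stem cells (Nes, Sox2, Pax6, Vim, Fabp7 and Hes5) were all above 1 TPM in mean in every group.

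On day 5, Rnase1 was higher in shRNARUS. It had 0.23, 0.19, 0.11 and 0.35 TPM in the shRNACON libraries and 0.8, 1.09, 0.54 and 0.92 TPM in the shRNARUS libraries. Every shRNARUS library lay above every shRNACON library, although all 8 values were close to or below 1 TPM. The mean was 0.22 ± 0.10 TPM against 0.838 ± 0.231 TPM (SD, n = 4), a ratio of 3.81. The log2 difference was 1.69 with a standard error of 0.29 (limma adjusted p = 0.00199). Leaving out shRNARUS replicate 4, the library that stood apart, gave 1.67 (limma adjusted p = 0.00465). Rnase1 was called higher in all 16 alternatives that gave a value, with a log2 difference between 0.63 and 2.10.

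The other 3 genes did not pass on day 5. 1810028F09Rik had 0.04, 0.03, 0 and 0.03 TPM in shRNACON and 0.12, 0.06, 0.11 and 0 TPM in shRNARUS, so the groups overlapped at 0. Its mean was under the minimum of 0.1 TPM for a test; fitted without that minimum, its log2 difference was 0.47 (limma adjusted p = 0.298). No difference in this RNA was detected on day 5, at levels close to 0, and what difference could have been detected was not tested.

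Rnase4 was the most abundant of the 4 genes on day 5. It had 19.73, 19.82, 20.29 and 19.11 TPM in shRNACON and 19.69, 18.84, 17.37 and 19.38 TPM in shRNARUS. The groups overlapped, and the log2 difference was 0.088 with a standard error of 0.064 (limma adjusted p = 0.332). Ang, the neighbour with shared first exons, had 2.51, 3.04, 3.08 and 2.42 TPM in shRNACON and 2.65, 2.11, 2.42 and 2.86 TPM in shRNARUS. These groups overlapped too, and the log2 difference was 0.019 with a standard error of 0.13 (limma adjusted p = 0.933). On TPM as deposited, without library factors, the log2 difference became -0.070 for Rnase4 and -0.134 for Ang, again not called; for all genes tested the same choice moved the median log2 difference on day 5 from -0.061 to -0.205.

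The background on day 5 was 22581 tested genes, of which 14.8% had a call higher in shRNARUS and 17.9% a call lower. Of the 3 genes of this locus that were tested, Rnase1 was called higher and none lower. On deposited TPM, all shRNARUS libraries lay above all shRNACON libraries in 7.60% of the tested genes and below in 25.9%. Of the 3 tested genes, Rnase1 was above and none was below. The counts over all genes moved with the scaling on day 5, from 3349 higher and 4034 lower to 1768 and 6037 on TPM as deposited and to 2418 and 4859 with scaling to the 75th percentile.

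On day 7, Rnase1 had 0.97, 1.23, 1.02 and 1.07 TPM in shRNACON and 36.14, 29.44, 35.22 and 37.38 TPM in shRNARUS. The lowest shRNARUS library stood far above the highest shRNACON library, and within each group the libraries were close together. The means were 1.07 ± 0.113 and 34.5 ± 3.52 TPM (SD, n = 4), a ratio of 32.2, and the log2 difference was 4.88. In shRNARUS, Rnase1 was thus at a level like that of Rnase4, described next.

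1810028F09Rik was listed at low levels in shRNACON on day 7, with 0.1, 0.07, 0.04 and 0.12 TPM. In shRNARUS it had 5.54, 4.88, 5.91 and 6.03 TPM. No library of the groups overlapped; the means were 0.0825 ± 0.035 and 5.59 ± 0.517 TPM (SD, n = 4). The ratio of the means was 67.8, on a denominator close to 0, and the log2 difference was 4.98, which fell to 2.60 with 1 TPM added and rose to 6.00 with 0.01 TPM added. Both genes lie on the minus strand, 1810028F09Rik downstream of Rnase1.

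Rnase4 went the other way on day 7. It had 69.55, 65.54, 69.35 and 68.14 TPM in shRNACON and 30.69, 27.83, 32.67 and 30.61 TPM in shRNARUS. The means were 68.1 ± 1.85 and 30.5 ± 1.99 TPM (SD, n = 4), so that shRNARUS had 44.7% of the shRNACON level, a log2 difference of -1.16. Ang had 12.06, 10.62, 10.35 and 9.3 TPM in shRNACON and 4.67, 4.35, 5.27 and 4.32 TPM in shRNARUS. All shRNARUS libraries of both genes were below all shRNACON libraries. The means of Ang were 10.6 ± 1.14 and 4.65 ± 0.441 TPM (SD, n = 4), 44.0% of the shRNACON level and a log2 difference of -1.17.

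**Figure D1:**
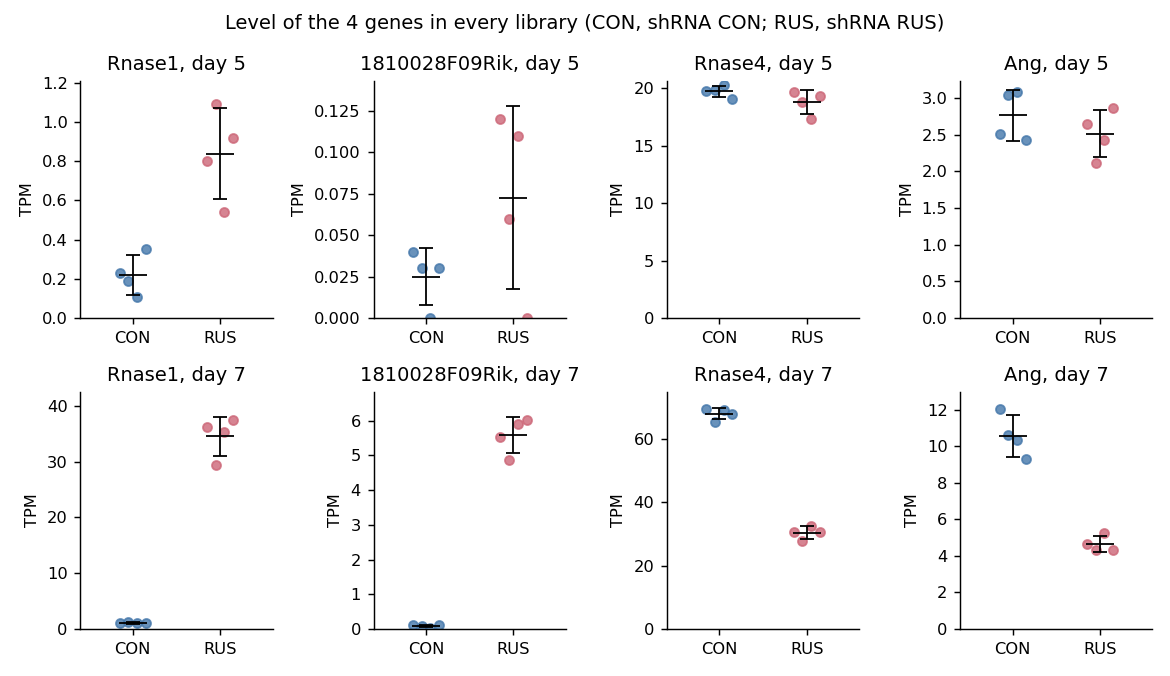
TPM (linear axis from 0, own scale in each panel) of the 4 genes in every library, by day and shRNA; points are libraries, and the bar and whiskers are the mean and SD of 4 libraries. Rnase1 separates the shRNAs on both days, reaching 34.5 TPM in shRNARUS on day 7, whereas Rnase4 and Ang overlap on day 5 and are lower in shRNARUS on day 7.

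The background on day 7 was 24606 tested genes, of which 23.4% had a call higher and 25.8% a call lower in shRNARUS; all shRNARUS libraries lay above all shRNACON libraries in 22.3% and below in 24.2%. Rnase1 and 1810028F09Rik were above and Rnase4 and Ang below; since the genes were picked on that contrast, nothing is read from these counts. When 10038 genes that averaged 1 TPM or more and whose groups did not overlap were put in order of log2 difference, 1810028F09Rik was at 1 and Rnase1 at 2. These 2 places restate how the genes were picked. 1810028F09Rik reached the minimum only through shRNARUS, at 5.59 TPM in mean against 0.0825 TPM in shRNACON. With 1 TPM added, its log2 difference was 2.60 and that of Rnase1 4.09, the reverse order. Next in that order, the noncoding gene Gm28872 had a log2 difference of 4.33, with 0, 1.12, 0 and 0 TPM in shRNACON and 4.54, 3.44, 2.58 and 4.38 TPM in shRNARUS. Rnase4 and Ang stood at 555 and 549 when the order was counted from the largest fall.

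Between day 5 and day 7 the levels of the 4 genes diverged by shRNA. Rnase1 rose 4.88-fold in mean TPM in shRNACON and 41.2-fold in shRNARUS, log2 differences of 1.79 and 4.93. The mean level of 1810028F09Rik in shRNARUS went from 0.0725 to 5.59 TPM, whereas in shRNACON it was 0.025 and 0.0825 TPM. Rnase4 rose 3.45-fold in shRNACON and 1.62-fold in shRNARUS, log2 differences of 1.63 and 0.37. For Ang these ratios were 3.83 and 1.85, and the log2 differences 1.75 and 0.55. The median of all genes was 0.065 in shRNACON and 0.12 in shRNARUS on this scale. All 4 genes thus had higher means on day 7 with either shRNA, and the shRNARUS rise was the larger for Rnase1 and 1810028F09Rik and the smaller for Rnase4 and Ang.

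Within a library, the ratio of Ang to Rnase4 needs no scaling between libraries. On day 5 it was 0.140 ± 0.0148 in shRNACON and 0.133 ± 0.0152 in shRNARUS (SD, n = 4), a log2 difference of -0.069 (exact two-sided permutation test over 70 arrangements, p = 0.6, with 0.0286 as the smallest p the design allows). On day 7 the ratio was 0.155 in shRNACON and 0.153 in shRNARUS. Over all 16 libraries it lay between 0.112 and 0.173, while the TPM of Rnase4 lay between 17.37 and 69.55. The ratio of 1810028F09Rik to Rnase1 on day 7 was 0.103, 0.0569, 0.0392 and 0.112 in shRNACON and 0.153, 0.166, 0.168 and 0.161 in shRNARUS. The shRNARUS ratios were all above the shRNACON ratios and closer together, with 1810028F09Rik at 0.12 TPM or less in every shRNACON library; on day 5 no ratio is given, because 1810028F09Rik was listed at 0 in some libraries.

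**Figure D2:**
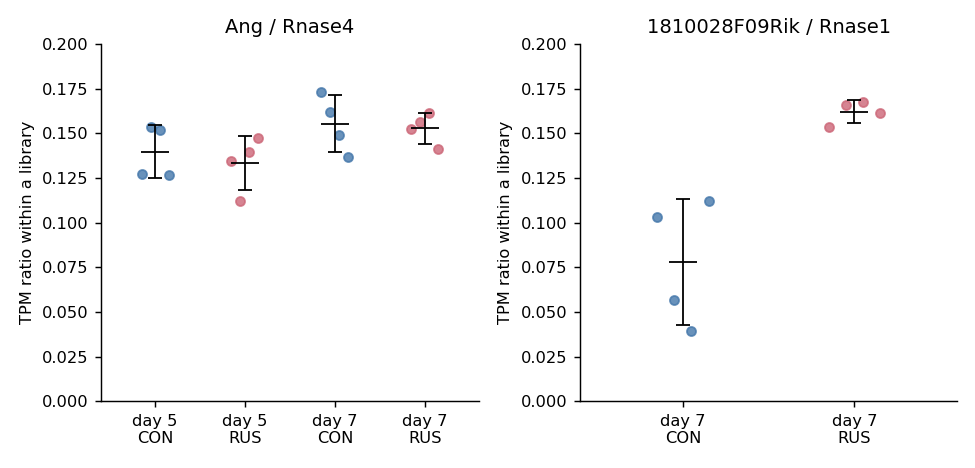
Ratio of TPM within a library, Ang to Rnase4 on both days (left) and 1810028F09Rik to Rnase1 on day 7 (right), on linear axes from 0; points are libraries, and the bar and whiskers are the mean and SD of 4 libraries. The Ang to Rnase4 ratio lies between 0.112 and 0.173 in all groups, and the 1810028F09Rik to Rnase1 ratio averages 0.0778 in shRNACON and 0.162 in shRNARUS.

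Of the 8 lists of cell type markers, those of microglia, oligodendrocyte lineage cells, choroid plexus and ependyma, and endothelium had summed levels that, like Rnase4 and Ang, were higher in every shRNACON library of day 7 than in any shRNARUS library of that day and had their highest median there. The sum of the neuron markers also had its highest median in shRNACON on day 7, with overlap between the shRNAs; the endothelial and neuron values are given with those of Rnase1. Microglia are the resident macrophages of the brain. The summed level of 8 microglia markers (Cx3cr1, P2ry12, Tmem119, Csf1r, C1qa, C1qb, Aif1 and Trem2) lay between 118 and 132 TPM in shRNACON and between 105 and 130 TPM in shRNARUS on day 5. On day 7 it lay between 312 and 344 TPM in shRNACON and between 151 and 183 TPM in shRNARUS. On day 7, all 8 markers were called lower in shRNARUS, with a median log2 difference of -0.91, whereas on day 5 1 was called higher and 2 lower. Of all tested genes, 23.4% were called higher and 25.8% lower on day 7, and 14.8% and 17.9% on day 5. No marker of the list was at 0 in every library of a group. The sum of 7 oligodendrocyte lineage markers lay between 401 and 448 TPM in shRNACON and between 262 and 289 TPM in shRNARUS on day 7. On that day 6 of 7 genes were called lower and none higher, against 25.8% and 23.4% of all genes, with a median log2 difference of -0.69. On day 5 that sum was between 241 and 316 TPM against between 154 and 217 TPM, while Rnase4 and Ang were not called on that day. Of the list, 4 genes were called lower and none higher on day 5, against 17.9% and 14.8% of all genes. The sum of 6 choroid plexus and ependyma markers, most of it from Foxj1, lay between 389 and 508 TPM against between 251 and 322 TPM on day 7, with 3 of 5 tested genes called lower and 1 higher, and between 214 and 266 TPM against between 170 and 218 TPM on day 5, with 1 called in each direction. These counts stand beside the same shares of all genes. In bulk libraries, fewer cells of a type and less RNA per cell cannot be told apart, and the part of these cell types in the levels of Rnase4 and Ang was not tested.

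**Figure D3:**
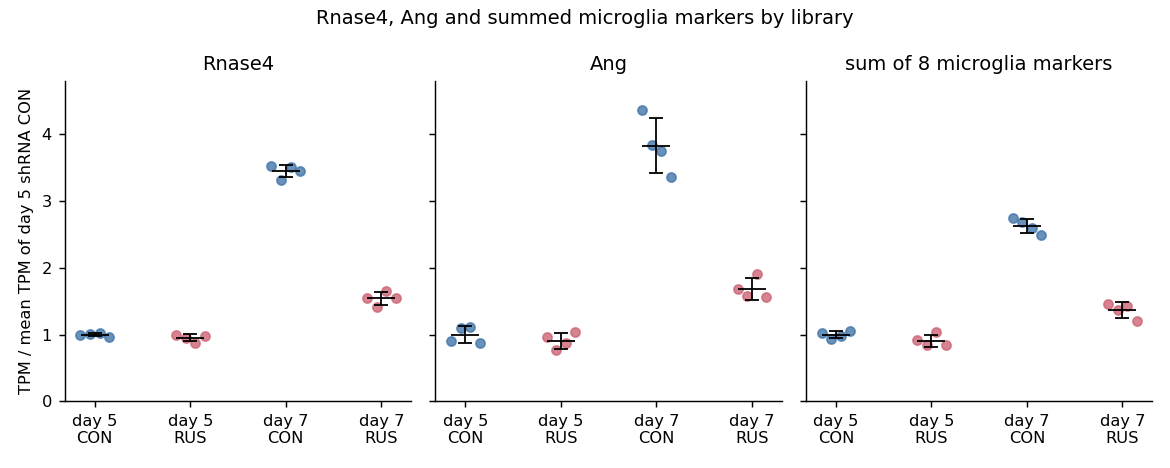
Level of Rnase4, of Ang and of the sum of 8 microglia markers in every library, as TPM divided by the mean TPM of day 5 shRNACON, by day and shRNA on a linear axis from 0; points are libraries, and the bar and whiskers are the mean and SD of 4 libraries. All 3 are highest in shRNACON on day 7, where the marker sum is 312 to 344 TPM, and lower in shRNARUS on that day, where it is 151 to 183 TPM. Sums of oligodendrocyte lineage, choroid plexus and ependyma, and endothelial markers, not drawn, were also higher in shRNACON on day 7 without overlap.

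The lists of vascular and mural cell markers were mixed beside Rnase1, which is found in vascular endothelium. The summed level of 12 endothelial markers was between 11.0 and 12.3 TPM in shRNACON and between 6.23 and 8.14 TPM in shRNARUS on day 5, and between 12.95 and 14.79 TPM against between 6.62 and 7.72 TPM on day 7. Most of this sum came from Kdr and Egfl7, which alone averaged 1 TPM or more. On day 7, Kdr had 6.30 TPM in shRNACON and 2.51 TPM in shRNARUS, and Egfl7 4.88 and 2.02 TPM, whereas Pecam1 had 0.255 and 0.353 TPM and Esam 0.26 and 0.53 TPM. Of 7 endothelial markers tested, 3 were called lower and none higher on day 5, and 2 lower and 1 higher on day 7, with a median log2 difference of 0.021 and -0.028. Of all tested genes, 17.9% were called lower and 14.8% higher on day 5, and 25.8% and 23.4% on day 7. The summed markers of pericytes and fibroblasts lay between 343 and 359 TPM against between 263 and 278 TPM on day 5, and between 221 and 244 against between 256 and 331 TPM on day 7, and most of them were Acta2, with 318 and 235 TPM on day 5. Pdgfrb, a receptor of pericytes, had 13.9 and 15.8 TPM on day 5 and 11.4 and 28.7 TPM on day 7. Of 7 genes of that list tested, 1 was called higher and 1 lower on day 5, and 4 higher and none lower on day 7. These counts, too, stand beside 14.8% higher and 17.9% lower of all genes on day 5, and 23.4% and 25.8% on day 7.

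The sums of 2 other lists were higher in shRNARUS on both days, as Rnase1 was, without overlap between the groups. For 6 neural stem cell markers the sum was between 11777 and 13152 TPM in shRNACON and between 15604 and 17211 TPM in shRNARUS on day 5, and between 6447 and 6943 against between 7009 and 7731 TPM on day 7. Most of this sum came from Vim, with 8918 and 11741 TPM on day 5 and 5121 and 5781 TPM on day 7, and from Fabp7, with 3510 and 4497 TPM on day 5 and 1248 and 1223 TPM on day 7. Nes went the other way in mean, with 56.0 and 27.5 TPM on day 5 and 111 and 48.6 TPM on day 7, and Hes5 had 9.45 and 5.37 TPM on day 5. Of the 6 genes, 3 were called higher and 2 lower on day 5, and 2 in each direction on day 7. Of all tested genes, 14.8% were called higher and 17.9% lower on day 5, and 23.4% and 25.8% on day 7. For 8 astrocyte markers the sum was between 5063 and 5608 TPM against between 5906 and 6427 TPM on day 5, and between 3565 and 3675 TPM against between 4267 and 4486 TPM on day 7. Beside the same shares of all genes, 2 of these markers were called higher and 1 lower on day 5, and 3 higher and 2 lower on day 7. Gfap, with 1797 and 2434 TPM on day 5, and Aldoc, with 1291 and 1719 TPM, were higher in mean in shRNARUS, and Slc1a3 was lower in mean, with 868 and 724 TPM. Both sums were smaller on day 7 than on day 5, when Rnase1 was at its lower level. The summed level of 6 neuron markers was between 305 and 417 TPM against between 241 and 275 TPM on day 5, and between 688 and 770 TPM against between 656 and 777 TPM on day 7. The part of any of these cells in the levels of the 4 genes was not tested.

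The genes with a pattern most like that of Rnase1 over the 4 group means, by the root mean square distance of centred log2 values among 15898 genes compared, were mostly listed at 0 on day 5. The genes compared averaged at least 1 TPM over the 16 libraries. The member 1810028F09Rik was at a distance of 0.55. That distance uses the day 7 values on which both genes were picked, so nothing is read from it. 1810028F09Rik, n-R5s15, Gm28872 and Gm24196 were under 1 TPM in mean in every group but shRNARUS on day 7. They thus passed the minimum only through that group. Outside the locus, the nearest were n-R5s15 (0.65), Gm28872 (0.67) and Gm24196 (0.71), each at 0 TPM in mean in both day 5 groups, then Gm23676 (0.82) and Gm12905 (1.02). Gm12905 had mean levels of 0.725 and 0.645 TPM on day 5 and of 2.01 and 14.7 TPM on day 7, in shRNACON and shRNARUS respectively. Rnase4 and Ang were distant from Rnase1 by 2.51 and 2.48.

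By the same measure applied to Rnase4, a choice made after the values were seen, Ang was at 0.081 and ranked behind 4 other genes. The nearest was Serpinb1b (0.045), followed by Plvap (0.050), Gm26877 (0.060) and Lcp2 (0.068), with Fcgr2b (0.086) just behind Ang. Their mean levels on day 7, in shRNACON and shRNARUS, were 3.41 and 1.45 TPM for Serpinb1b, a serine protease inhibitor of the serpin family, 12.96 and 6.12 TPM for Plvap, a protein of endothelial fenestrae and caveolae, and 2.34 and 0.975 TPM for Gm26877. They were 3.76 and 1.56 TPM for Lcp2, an adaptor of immune receptor signalling in leukocytes, and 4.27 and 2.01 TPM for Fcgr2b, an inhibitory Fc receptor of myeloid and B cells.

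The other 19 genes of the RNase A family on the list were at or near 0 TPM. Of these, 2 were not found in the tables (Ear3 and Ang3), 7 were at 0 in all 16 libraries and 10 had a value above 0 in at least 1 library, the highest of which was 0.49 TPM, for Rnase10. Rnase6, Rnase10 and Ang2 could be tested on day 5 and Rnase6 and Rnase10 on day 7, and none was called or had an unadjusted p under 0.05 in limma. Rnase10 had a log2 difference of 0.45 on day 5 (limma adjusted p = 0.306) and -0.55 on day 7 (limma adjusted p = 0.168). For Rnase6, a ribonuclease of macrophages that is known for antimicrobial activity, the values were -0.62 (limma adjusted p = 0.245) and 0.21 (limma adjusted p = 0.725), and for Ang2, a close copy of Ang, -0.31 on day 5 (limma adjusted p = 0.757). These 3 genes were also the only ones within 100000 bp of the locus, other than the members, that could be tested.

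Of 7 related genes, 3 were called higher and none lower on day 5, against 14.8% and 17.9% of all genes, with a median log2 difference of 0.22 beside -0.061 for all genes tested. None was called lower by limma, and 1 had an unadjusted p under 0.05 in that direction, Pld4 (-0.29, limma adjusted p = 0.0506). Pld3, a lysosomal exonuclease, rose from 129 to 209 TPM (log2 difference 0.86, limma adjusted p = 0.000163) and was called under all 17 alternatives. Dnase2a, the lysosomal nuclease of DNA (0.28, limma adjusted p = 0.0297), and Rnaset2b, an RNase T2 enzyme (0.22, limma adjusted p = 0.0244), were called higher, and lost the call under 8 and 9 alternatives, among them TPM as deposited and scaling to the 75th percentile. The inhibitor Rnh1 had 140 and 137 TPM (limma adjusted p = 0.268), and the angiogenin receptor Plxnb2 256 and 232 TPM (limma adjusted p = 0.999).

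On day 7, 2 of the 7 related genes were called higher and 4 lower, against 23.4% and 25.8% of all genes, with a median log2 difference of -0.34 beside -0.029 for all genes tested. Pld3 was higher again, with 141 against 90.6 TPM (log2 difference 0.64, limma adjusted p = 2.95e-06). Plxnb2 was higher by 0.23 (limma adjusted p = 0.0173), a call lost with scaling to the 75th percentile. The inhibitor Rnh1 was lower, with 86.0 ± 4.92 against 109 ± 2.47 TPM (SD, n = 4; log2 difference -0.34, limma adjusted p = 0.000122). Pld4, an exonuclease of endolysosomes that is expressed in microglia, was lower, with 2.88 against 5.73 TPM (log2 difference -0.97, limma adjusted p = 1.65e-05). Rnaset2a and Rnaset2b were lower by -0.54 (limma adjusted p = 0.0119) and -0.35 (limma adjusted p = 9.75e-05); these are near-identical copies, so the division of their reads is uncertain.

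**Figure D4:**
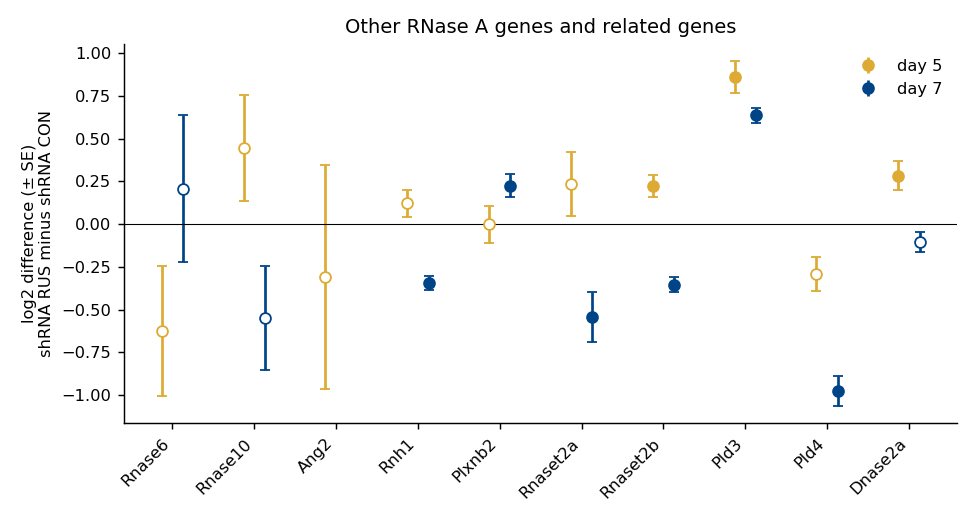
Log2 difference between shRNARUS and shRNACON (linear axis, whiskers are the standard error from limma, 4 libraries per group) of the other tested RNase A family genes and related genes on day 5 and day 7; filled points passed an adjusted p of 0.05 and open points did not. Pld3 lies above 0 on both days (0.86 and 0.64), and Rnh1, Rnaset2a, Rnaset2b and Pld4 lie below 0 on day 7.

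Around the 4 genes, 60 other genes are annotated within 500000 bp and 59 of them are in the tables, of which 19 could be tested on each day, with a median log2 difference of 0.071 on day 5 and -0.053 on day 7. On day 5, 1 was called higher and none lower, against 14.8% and 17.9% of all genes; this was Pnp, purine nucleoside phosphorylase, with 143 against 107 TPM (log2 difference 0.58, limma adjusted p = 0.000308). Unadjusted p-values from limma were under 0.05 for 4 genes that were higher and 1 that was lower. On day 7, 3 were called higher and 2 lower, against 23.4% and 25.8% of all genes. Those higher were Pnp (0.23, limma adjusted p = 0.00169), Ttc5 (0.19, limma adjusted p = 0.00253) and Klhl33 (0.89, limma adjusted p = 0.0351), the last at 0.06 and 0.20 TPM in mean and not called in 7 of 16 alternatives. Those lower were Apex1, the main abasic site endonuclease of base excision repair (-0.68, limma adjusted p = 2.21e-06), and Osgep (-0.43, limma adjusted p = 0.00241). No tested neighbour had a log2 difference above 0.69 on day 5, where Rnase1 had 1.69.

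**Figure D5:**
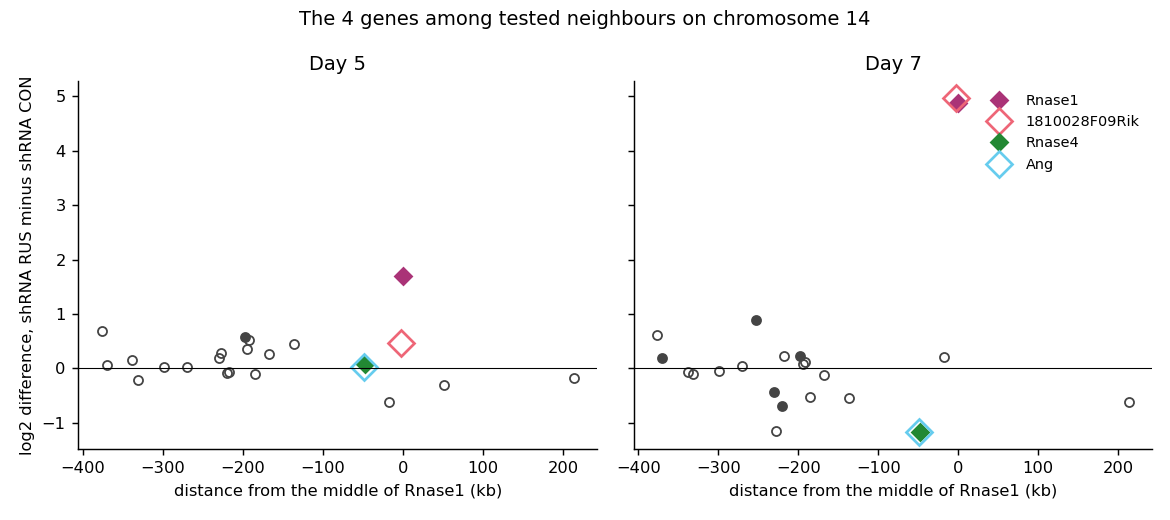
Log2 difference between shRNARUS and shRNACON (linear axis) against distance in kb from the middle of Rnase1 for the 4 genes (diamonds) and the tested neighbours on chromosome 14 (circles; filled where an adjusted p of 0.05 was passed), on day 5 and day 7. Rnase1 stands at 1.69 on day 5, and the day 7 panel shows the values on which Rnase1 (4.88) and 1810028F09Rik (4.98) were picked, with Rnase4 at -1.16 and Ang at -1.17.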

How the data were processed

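RNA-seq of 16 libraries from mouse NSC was assigned to 4 groups (shRNA and day) by the labels. PolyA RNA was sequenced on a NextSeq, and reads were aligned with STAR to mm10 with the GRCm38.99 transcripts and quantified with RSEM. The authors deposited TPM per library and, from their own comparison with DESeq2, a mean normalized count (a signal averaged over the libraries of a day), log2 fold changes, standard errors, statistics and p-values. The deposited mean signal was copied as the authors' mean; the other comparison columns were not used. The tables used here hold no counts, so the depth of a library is unknown and no interval that needs it is given; TPM sum to 1000000 in each library.

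Each library was scaled by a factor, its median ratio to the geometric mean of the fitted libraries over genes that reached 1 TPM in every one, and values were transformed to log2 after adding 0.1. Genes averaging 0.1 TPM or more were tested per day with limma's lmFit and eBayes with trend, two-sided, with Benjamini-Hochberg adjustment over all genes tested and a threshold of 0.05. The steps were tested on simulated data. Python 3.11.15, R 4.3.3 and limma 3.58.1 were used. The ratio of Ang to Rnase4 was compared by an exact permutation test. Positions came from GENCODE vM21 on GRCm38, a release that is not the authors', and promoter windows from RefSeq on GRCm38.p6.

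The members and the gene and marker lists were chosen with earlier results of these data known; 1 gene first listed among the related genes is not reported here and is in none of the list's counts. The genes named were the members, tested genes of the RNase A family and related list, tested protein-coding neighbours within 100000 bp, the 5 genes outside the locus nearest to Rnase1 in pattern and the gene next in the day 7 order; called neighbours farther away, the 5 genes nearest to Rnase4 in pattern and the single marker genes given with values were named after their values were seen. Replicate numbers did not pair the libraries: correlations of same-numbered libraries were -0.105 to 0.0020 on day 5 and -0.0038 to 0.033 on day 7. Alternatives were other added values, filters, scalings, a fit without trend, a replicate block and leaving out each library.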

Additional observations from a re-analysis of the deposited data

How the results depend on the processing

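Over 29 results and 381 alternatives, 339 values kept their direction and their side of the threshold or stayed within the replicate spread, 34 moved beyond it and 8 changed sign; the cause was not tested. The day 5 call of Rnase1 held in all 16 alternatives (limma adjusted p between 0.00137 and 0.00784), and a minimum mean of 1 TPM gave it no value. The day 5 difference of Ang, not called, was -0.134 on TPM as deposited, -0.057 with 75th percentile scaling and -0.048 to 0.087 without 1 library; that of Rnase4 was -0.070 on TPM as deposited. The log2 difference of the Ang to Rnase4 ratio lay between -0.120 and 0.013 without 1 library. With 0.01 TPM added, the values were 1.06 for 1810028F09Rik on day 5 and 6.00 on day 7, and for day 7 minus day 5 2.19 for Rnase1 in shRNACON and 1.42 and 6.32 for 1810028F09Rik in shRNACON and shRNARUS. With 1 TPM added, the day 7 values were 4.09 for Rnase1 and 2.60 for 1810028F09Rik, and the values for day 7 minus day 5 were 0.70 and 4.06 for Rnase1, 0.070 and 2.49 for 1810028F09Rik (shRNACON and shRNARUS) and 1.49 for Ang in shRNACON. For day 7 minus day 5, TPM as deposited gave 5.24 for Rnase1 in shRNARUS, 1.78 and 0.69 for Rnase4 in shRNACON and shRNARUS and 0.87 for Ang in shRNARUS; 75th percentile scaling gave 1.71 and 0.47 for Rnase4; quantile normalization gave 0.093 for 1810028F09Rik in shRNACON and 0.29 for Ang in shRNARUS.

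RNase A family and related genes called higher on day 5 numbered 1 on TPM as deposited, with 75th percentile scaling and with the replicate block, against 3; those called lower numbered 1 on TPM as deposited, with 0.01 TPM added, a minimum of 1 TPM or 75th percentile scaling, against 0. On day 7, 1 was called higher with 75th percentile scaling, against 2. Neighbours called lower on day 5 numbered 2 on TPM as deposited and 1 with a minimum of 1 TPM, quantile normalization or 75th percentile scaling, against 0. The count of all genes called higher on day 5 was 1768 on TPM as deposited and 2231 with the replicate block, against 3349. Replicate numbers do not pair the libraries, and libraries did not each correlate best with their own number; with the block, Rnase1 kept its day 5 call (limma adjusted p = 0.00684). The alternatives for the day 5 ratio of 1810028F09Rik to Rnase1 were not run because of values at 0, and filters and the trend were not varied for values without a test, apart from the missing minimum for 1810028F09Rik on day 5.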
